A study of Homo sapiens with 2 samples.

Results

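CpG islands that lie between genes were examined in a nucleosome map of ARPE-19 cells. An island was a stretch of hg38 found with a running score of +17 for each CpG and -1 for every other base, over 500 bp long, with a GC content of 55% or higher and over 0.65 times the CpGs that its base composition predicts (the CpG ratio). Of 16567 such islands on chromosomes 1-22, 1094 lay over 2 kb from every GENCODE v44 gene of any type, coding or not, and these 1094 are the islands between genes described here. They made up 6.6% of the islands and 998.3 kb of sequence. ARPE-19 is an epithelial line derived from human retinal pigment epithelium, grown here under normal culture conditions and taken in interphase. Cells were lysed, treated with micrococcal nuclease for 5 min at 37 °C, and DNA of about 150 bp was recovered from a gel for sequencing. The labels give 2 samples, batch 1 and batch 2, of the same line in the same state, with no treated or untreated arm. The deposited list of called positions, each 1 bp wide, names neither batch, so every value below comes from 1 map with no replicates and of unknown read depth.

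CpG islands keep many CpG dinucleotides where most of the genome has lost them, usually because they stay unmethylated in the germ line. Most sit at promoters, but others, often called orphan islands, lie away from annotated starts, and some of these act as distant or tissue-restricted promoters or as enhancers. A nucleosome wraps DNA around a core of histones, and micrococcal nuclease cuts the linker between nucleosomes, so that the protected fragments mark where nucleosomes sat. Active islands at promoters are known for open, nucleosome-poor chromatin, whereas methylated CpG-rich sequence is usually packed into nucleosomes. By its title the series concerns highly methylated CpG sites at island borders, and methylation was not analysed here.

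Stretches of 300 bp from 6 of these islands show what an edge and an interior look like in sequence. All are the plus strand of hg38, 5′ to 3′, with every CpG in capitals. The first 4 run from 100 bp outside the left edge to 200 bp inside it and belong to the unique-sequence islands (explained with the islands' makeup) that ranked first for positions, for length without a position, for CpG ratio and for distance from a gene. The fifth has the same layout and was added after the values were seen, because a called position lies close to its edge, at base 150 of the run. The sixth, also added afterwards, lies wholly inside an island and holds called positions at bases 58 and 244.
Island 3040 bp before LINC01977, with the most positions, chr17:79809911-79810210: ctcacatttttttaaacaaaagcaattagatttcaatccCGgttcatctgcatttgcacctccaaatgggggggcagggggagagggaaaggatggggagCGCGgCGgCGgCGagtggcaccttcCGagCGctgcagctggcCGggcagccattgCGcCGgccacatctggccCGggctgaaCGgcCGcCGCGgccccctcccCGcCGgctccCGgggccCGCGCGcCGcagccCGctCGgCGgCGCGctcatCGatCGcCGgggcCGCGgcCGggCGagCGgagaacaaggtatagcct
Island 19807 bp beyond the start of HMX1, the longest unique one without a position, chr4:8891546-8891845: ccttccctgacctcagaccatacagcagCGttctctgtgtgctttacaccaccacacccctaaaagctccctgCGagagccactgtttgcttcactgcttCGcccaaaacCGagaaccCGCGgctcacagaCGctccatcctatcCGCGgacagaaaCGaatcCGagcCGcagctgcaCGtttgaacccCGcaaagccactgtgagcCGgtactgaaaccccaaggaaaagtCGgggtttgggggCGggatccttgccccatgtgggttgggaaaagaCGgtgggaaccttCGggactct
Unique island with the highest CpG ratio, 5429 bp from ENSG00000280017, chr5:10548521-10548820: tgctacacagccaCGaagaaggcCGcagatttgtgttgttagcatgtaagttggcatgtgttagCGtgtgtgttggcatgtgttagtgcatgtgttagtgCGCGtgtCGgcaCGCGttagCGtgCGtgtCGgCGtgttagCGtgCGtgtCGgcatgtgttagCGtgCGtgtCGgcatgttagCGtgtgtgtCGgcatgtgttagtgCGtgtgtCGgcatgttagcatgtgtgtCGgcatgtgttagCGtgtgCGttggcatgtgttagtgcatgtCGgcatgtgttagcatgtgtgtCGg
Unique island farthest from any gene, chr1:125085410-125085709: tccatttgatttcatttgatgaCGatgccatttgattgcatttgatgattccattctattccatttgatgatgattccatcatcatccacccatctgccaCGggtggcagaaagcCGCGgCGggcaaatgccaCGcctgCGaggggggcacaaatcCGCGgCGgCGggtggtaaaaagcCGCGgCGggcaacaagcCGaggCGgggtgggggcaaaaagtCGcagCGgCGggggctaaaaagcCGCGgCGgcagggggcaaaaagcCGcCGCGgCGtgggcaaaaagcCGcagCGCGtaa
Island 8655 bp beyond the end of LBX1, chr10:101216113-101216412: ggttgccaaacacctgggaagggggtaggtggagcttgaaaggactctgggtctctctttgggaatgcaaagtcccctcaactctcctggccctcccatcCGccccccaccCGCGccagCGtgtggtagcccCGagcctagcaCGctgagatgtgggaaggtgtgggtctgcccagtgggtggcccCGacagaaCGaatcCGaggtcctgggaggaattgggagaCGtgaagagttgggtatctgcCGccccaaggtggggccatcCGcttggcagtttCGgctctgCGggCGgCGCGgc
Island 27640 bp from the pseudogene ENSG00000267433, in the region of CCNE1, chr19:29872962-29873261: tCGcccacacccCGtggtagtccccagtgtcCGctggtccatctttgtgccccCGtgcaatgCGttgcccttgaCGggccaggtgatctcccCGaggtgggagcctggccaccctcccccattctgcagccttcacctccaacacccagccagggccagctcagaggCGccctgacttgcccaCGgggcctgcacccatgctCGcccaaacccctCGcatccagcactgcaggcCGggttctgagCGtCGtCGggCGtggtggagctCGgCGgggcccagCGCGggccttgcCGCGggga

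In the LINC01977 island the outer 100 bp held 1 CpG and the inner 200 bp held 35. The same counts were 2 and 17 at the HMX1 island, 3 and 24 at the island with the highest ratio, 1 and 28 at the farthest island, and 0 and 17 at the LBX1 island. An island begins with a CpG by construction, so this step follows from how islands were drawn. In the island with the highest ratio, 4.68% of the 50-base words were further copies of a word already present in the island, against none in the other 5.

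The islands between genes were short and often repeated elsewhere in the genome. Their median length was 740 bp (quartiles 577 and 1005 bp), against 1000 bp for the 10882 promoter islands, which hold or lie within 500 bp of a gene start, and 819 bp for the 3556 gene-body islands, which overlap a gene and lie over 2 kb from every start. Their median CpG ratio was 0.780, against 0.853 at promoters and 0.806 in gene bodies, at a similar median GC content of 68.7%, 69.8% and 68.9%. For each island the share of its 50-base words that occur once on chromosomes 1-22, X and Y was computed, counting both strands. It served as an approximate measure of how well reads can be placed. Only exact copies were counted, so a word with near-identical copies elsewhere still counted as unique. Unplaced and alternate sequences were not searched, so a word counted as unique may have copies there. At least 90% of the words were unique in 656 of the 1094 islands between genes, in 90.9% of promoter islands and in 78.9% of gene-body islands. Under 50% were unique in 244, or 22.3%, against 4.04% of promoter and 11.5% of gene-body islands. Of these 244, 37 had most of their words repeated within the island itself, as tandem repeats do. The 656 islands are called unique and the 244 repeated from here on, and each result is given for both the full set and the unique islands where they differ.

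Distances from the nearest gene ran from 2016 bp to 3538 kb, with a median of 9.03 kb. The nearest gene was protein-coding for 412 of the islands and a long noncoding RNA gene for 350, and 495 had a protein-coding gene within 20 kb. Within 1 Mb of a chromosome end lay 112 of them, or 10.2%, compared with 4.41% of promoter islands and 10.5% of gene-body islands. The island just inside the 2-kb limit, 2016 bp from the pseudogene KRT89P on chromosome 12 (52356052 to 52356645), held no position. The island just outside it, 2000 bp from BOK-AS1 on chromosome 2 (241541030 to 241542403), held none either.

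Few positions were called inside the islands between genes, and most islands had none. They held 343 positions, or 0.344 per kb (95% exact Poisson interval 0.308 to 0.382), where chromosomes 1-22 as a whole carried 0.928 per kb. No position was found in 855 of the 1094, or 78.2% (95% Wilson interval 75.6 to 80.5%), against 64.3% of all 16567 islands. Of the unique islands, 454 of 656 were empty, or 69.2% (65.6 to 72.6%), against 60.8% of all unique islands. Gene-body islands came close to these shares, with 75.6% empty in the full set and 71.5% in the unique one. At promoters the same shares were 58.5% and 56.7%. Island length differs between these sets, so the shares are given as counts and not as a difference in occupancy. A further 169 islands held 1 position and 26 held 3 or more, with 5 as the highest count. Of all 16567 islands, 3943 held 1 position and 609 held 3 or more, with 20 as the highest count. These intervals cover counting error alone.

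The sequence around these islands carried more positions per kb than the islands did. In the flanks, 2 to 10 kb outside each edge, 17755 positions gave 1.22 per kb, above the average of the chromosomes. Flanks leave out other islands and any bases already counted in the flank of a preceding island. The interior, over 200 bp inside the edges, had 156 positions in 560.7 kb, or 0.278 per kb (0.236 to 0.326). Compared within each chromosome, the interior was lower than the flanks by 2.15 ± 0.16 on the log2 scale, with a log2 ratio of -2.15 (SE over 22 chromosomes). It was lower on 22 of 22 chromosomes (sign-flip permutation test over chromosomes, two-sided, p = 1e-05, the smallest that 100000 draws can give, adjusted 2.75e-05). In the unique islands alone the interior rose to 0.438 per kb and the flanks to 1.36 per kb, a log2 ratio of -1.64 ± 0.14, also lower on 22 of 22 chromosomes (adjusted permutation p = 5e-05). Chromosomes are not replicate cultures, so these p-values measure only how regular a difference was from chromosome to chromosome. Interiors had 67.3% GC and flanks 45.2%. Density in this map depends on GC content. With each base weighted by the density typical of its GC content, the flanks had 1.02 times their expected count. The log2 ratio was then -1.93 ± 0.20 for all islands between genes. For the unique ones it was -1.28 ± 0.13, lower on 21 of 22 chromosomes (adjusted permutation p = 1e-04). The typical densities were taken from this map with islands included, so the weighting also takes out part of the islands' own low density.

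The border, 200 bp either side of an edge, lay between interior and flanks. It held 465 positions in 874.4 kb, or 0.532 per kb (0.485 to 0.582), a log2 ratio of 0.92 ± 0.16 to the interior and higher on 20 of 22 chromosomes (permutation p = 1e-05, adjusted 2.75e-05). In unique islands the border had 0.698 and the interior 0.438 per kb, a log2 ratio of 0.67 ± 0.16 (adjusted permutation p = 0.00153). Weighting by GC content in unique islands left 0.26 ± 0.16, which did not pass (adjusted permutation p = 0.16). Because the weighting takes out part of the islands' own low density, it cannot show how much of the difference goes with GC content.

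**Figure D1:**
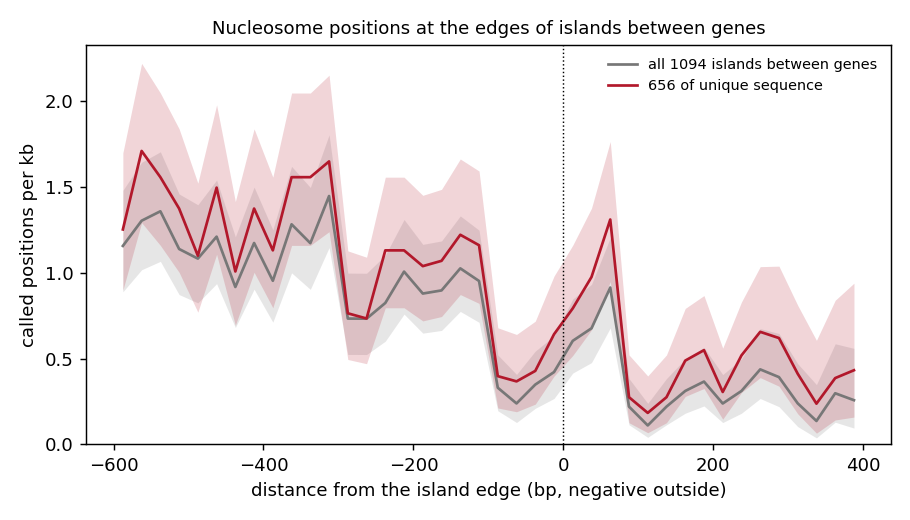
Called positions per kb (vertical axis) against distance from the island edge in bp (horizontal axis, negative outside), in 25-bp bins with both edges mirrored onto each other. Lines are the 1094 islands between genes and the 656 of unique sequence, and bands are 95% exact Poisson intervals. In both, a local maximum 50 to 75 bp inside the edge stands between a trough just outside and a deeper one from 75 bp inwards.

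At the edge itself a narrow band of higher density lay between troughs. In unique islands the first 75 bp inside had 1.03 per kb (0.836 to 1.25), below the 1.36 per kb of their flanks. Read from outside inwards in the unique islands, density was 1.16 per kb from 125 to 100 bp outside, with 38 positions. It fell to 0.397 per kb in the next 25 bp, with 13 positions, and to 0.367 per kb from 75 to 50 bp outside, with 12. From there it climbed to 0.976 per kb at 25 to 50 bp inside and 1.31 per kb at 50 to 75 bp inside, with 43 positions (0.949 to 1.77). In the next 25 bp it dropped to 0.274 per kb, with 9 positions, and from 100 to 125 bp inside it reached its lowest value near the edge, 0.183 per kb, with 6 positions (0.0671 to 0.398). The drop at 75 bp inside thus changed density from 1.31 to 0.274 per kb between neighbouring bins. GC content was 68.3% in the first and 68.9% in the second, and CpG density 8.86 and 8.95 per 100 bp. These values describe 25-bp bins, which are shorter than the recovered fragments of about 150 bp. A cause of the drop was not tested. Over all 1094 islands the same bins had 0.914 and 0.219 per kb. When each base was weighted by its GC content, the bin at 50 to 75 bp of the unique islands had 1.16 times its expected count and the bin at 100 to 125 bp had 0.200 times.

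Both features passed the tests set for them. In all islands between genes, the first 50 bp inside had 70 positions and the stretch 50 to 100 bp outside had 31, a log2 ratio of 1.17 ± 0.33, higher on 18 of 22 chromosomes and equal on 1 (permutation p = 0.00157, adjusted 0.00288). The first 100 bp inside had 132 positions and the next 100 bp had 55, on the same number of bases. That log2 ratio was 1.26 ± 0.17, higher on 21 of 22 chromosomes (permutation p = 1e-05, adjusted 2.75e-05), and 1.17 ± 0.16 in unique islands (adjusted permutation p = 5e-05). Both windows were taken from an earlier profile of all islands in this map, of which these are a part, so they are no independent finding of where the step lies. The left and right edges were also counted apart in the unique islands. From 0 to 75 bp inside, the left edges had 52 positions and the right edges 49. From 75 to 150 bp inside they had 13 and 11. In the 100 bp outside they had 23 and 37, or 0.351 (0.223 to 0.527) and 0.566 per kb (0.398 to 0.780). Further out, from 150 to 100 bp, the left edges had 49 and the right edges 29, with intervals of 1.11 to 1.98 and 0.594 to 1.27 per kb.

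Where a position lay in the first 75 bp inside an edge, positions outwards of it were counted in 40-bp classes from 60 to 300 bp away, and the class at 180 to 220 bp held the most. In the unique islands 97 of 1312 edges had such a position, and most of these had no other position in that range. Counting outwards from it, no position was found at 60 to 100 bp, 2 were found at 100 to 140 bp and 6 at 140 to 180 bp. There were 15 at 180 to 220 bp, or 3.87 per kb, then 9 at 220 to 260 bp and 1 at 260 to 300 bp. Promoter islands of unique sequence had their maximum in the same class, with 139 positions around 1335 edges, or 2.60 per kb, and gene-body islands did too, with 41 around 289 edges, or 3.55 per kb. Neighbouring positions inside the same unique island between genes formed 95 pairs with a median spacing of 199 bp (quartiles 170 and 369 bp). Of these pairs, 18 were under 60 bp apart, 33 between 140 and 220 bp and 42 over 220 bp. In unique promoter islands 2346 pairs had a median spacing of 311 bp (quartiles 182 and 544 bp). Both positions of a pair lie in the same island, so island length, which differs between these sets, limits the spacing.

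**Figure D2:**
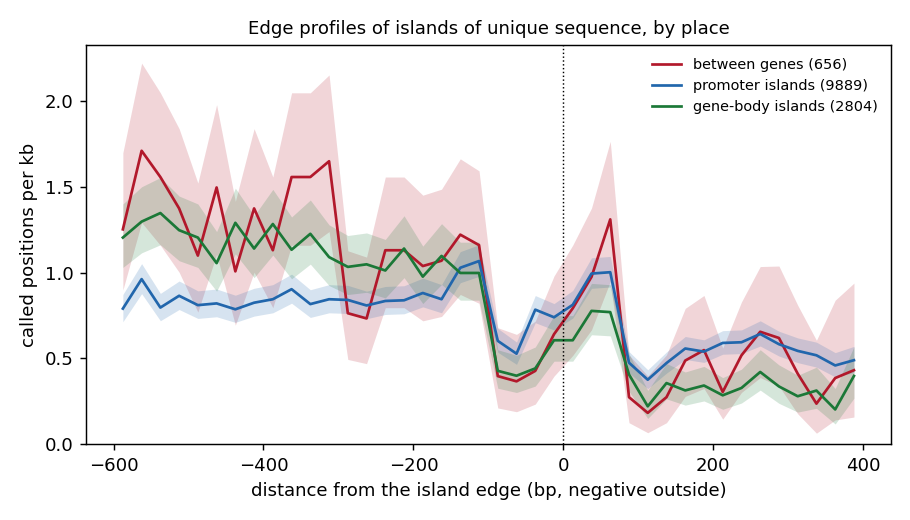
Called positions per kb (vertical axis) against distance from the edge in bp (horizontal axis, negative outside), in 25-bp bins, for islands of unique sequence between genes (656), at promoters (9889) and in gene bodies (2804), with 95% exact Poisson bands. A local maximum between 25 and 75 bp inside and a trough beyond 75 bp appear in the 3 sets. The set between genes has the widest bands because it is the smallest.

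The islands with the most positions inside show how these are arranged. All 5 of those ranked first among the unique islands had 100% unique words. The island 3040 bp before LINC01977, a long noncoding RNA gene on chromosome 17 (island 79810011 to 79816043, 6033 bp, 513 CpGs), had 5 positions. Its nearest protein-coding gene was CBX8, a subunit of Polycomb repressive complex 1, 8328 bp away. The first lay 1303 bp from the left edge, and all 5 were at 79811314, 79811845, 79812199, 79812371 and 79812550, and the last 3 were 172 and 179 bp apart. The island near CCNE1, the gene of cyclin E1, on chromosome 19 (29872296 to 29874056, 1761 bp) had 5 positions at 29873019, 29873205, 29873381, 29873571 and 29873815. Its successive gaps were 186, 176, 190 and 244 bp, and the printed stretch of it holds the first pair. CCNE1 lay 47984 bp away, and the nearest gene of any type was the pseudogene ENSG00000267433.

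The remaining islands of this group lay near FOXB2, LBX1 and NAV2. The island 2822 bp before FOXB2, a forkhead transcription factor gene on chromosome 9 (island 77013995 to 77016833, 57.8% GC), had 5 positions, among them 1 that was 12 bp from its right edge and the next 207 bp inwards. The island beyond LBX1, a homeobox gene of muscle precursors and spinal cord on chromosome 10 (island 101216213 to 101218339), had 4. Its first lay 49 bp inside the left edge at 101216262 and the next 179 bp further in. The island 4037 bp before NAV2, a neuron navigator gene on chromosome 11 (island 19345107 to 19346687), had 4, of which 2 were 28 bp apart and 1 was 9 bp from the right edge. Flanks of the 5 islands had 1.19 to 2.25 positions per kb.

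Empty islands differed in their surroundings. The longest unique island without a position, 19807 bp from HMX1, a homeobox gene of eye and ear development, lies on chromosome 4 (8891646 to 8894542, 2897 bp, 266 CpGs). Its flanks had 18 positions in 12.9 kb, or 1.39 per kb, so the map covered its surroundings. The one ranked 5 by length, on chromosome 2 (92072550 to 92075037), likewise had 23 positions in 16.0 kb of flanks. Those ranked 2 to 4, on chromosome 17 (21841826 to 21844463 and 26773239 to 26775813) and chromosome 1 (125085510 to 125088028), had no position within 50 kb on either side. The same was true of the 3 unique islands farthest from any gene, which were the one on chromosome 1, 3505 kb from LINC01691, and a pair on chromosome 7 starting at 60955462 and 60991774. Such empty surroundings were found at 59 of the 1094 islands and at 22 of the 656 unique ones. Over islands of every kind they were found at 162 of 16567, and at 35 of the 14158 unique ones. Of the 3 unique islands with the highest CpG ratio, those on chromosome 5 (10548621 to 10549417, ratio 1.43) and chromosome 10 (42177062 to 42177984, ratio 1.23) were empty with occupied flanks, at 1.69 and 0.75 per kb. The one on chromosome 2 (94272834 to 94273680, ratio 1.23) was empty with empty flanks.

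Repetition of the sequence moved with these counts more than any other feature tested. Unique islands had 297 positions, or 0.514 per kb (0.458 to 0.576), and repeated islands had 10 positions in 246.4 kb, or 0.0406 per kb (0.0195 to 0.0746). The log2 ratio was 3.62 ± 0.41, higher on 22 of 22 chromosomes (permutation p = 1e-05, adjusted 2.75e-05). Islands between these limits, with 50 to 90% unique words, had 0.206 per kb (0.145 to 0.286). Reads that match several places are commonly left out or placed at random, and how the authors treated them is not given in the sources used here. The lack of positions in repeated islands and a lack of nucleosomes there cannot be told apart.

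**Figure D3:**
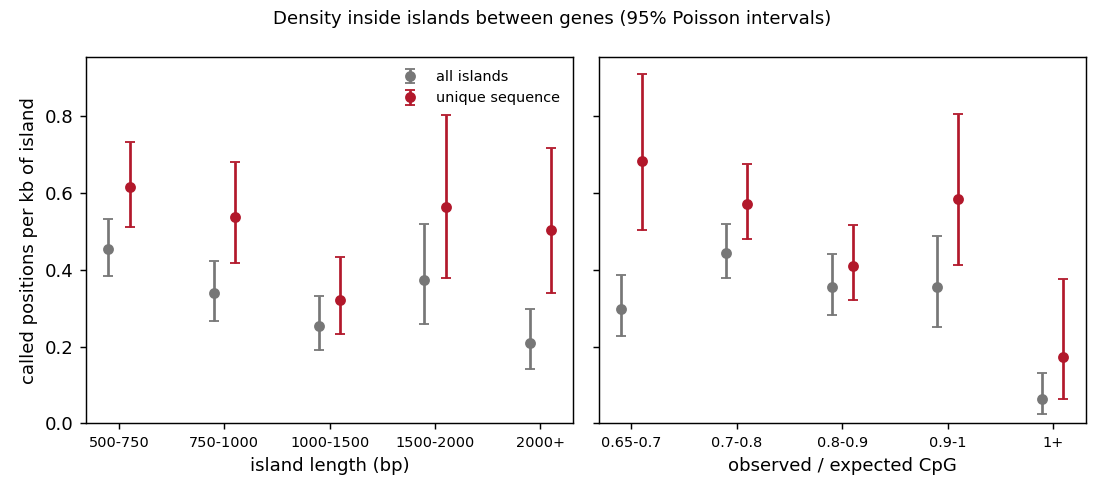
Called positions per kb of island (vertical axes) for islands between genes by length in bp (left) and by observed to expected CpG ratio (right). Points are all islands or unique ones, bars are 95% exact Poisson intervals, and the lowest point for both is the class with a ratio of 1 or more.

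By length, the 275 islands of 1000 bp or more were less dense than the 819 shorter ones, at 0.264 and 0.407 per kb over the whole island. The log2 ratio, -0.55 ± 0.20, was negative on 14 of 22 chromosomes (permutation p = 0.00869, adjusted 0.012). In unique islands the values were 0.418 and 0.586 per kb with a log2 ratio of -0.45 ± 0.22, which did not pass (adjusted permutation p = 0.0885). Without islands whose surroundings were empty it was -0.41 ± 0.21 and did not pass either (adjusted permutation p = 0.0791). The trend was not steady. Unique islands of 500 to 750 bp had 0.615 per kb, those of 1000 to 1500 bp had 0.323 and those of 2000 bp or more had 0.503 (0.339 to 0.718). A whole island counts its edge bands, which fill more of a short island than of a long one. Whether they account for the length difference was not tested. In unique islands the interiors had 0.553 per kb at 500 to 750 bp and 0.412 at 750 to 1000 bp. They had 0.291 at 1000 to 1500 bp, 0.519 at 1500 to 2000 bp and 0.515 at 2000 bp or more. In the first 75 bp inside the edge, unique islands under 1000 bp had 85 positions, or 1.15 per kb (0.922 to 1.43), and longer ones had 16, or 0.647 per kb (0.370 to 1.05). From 75 to 150 bp inside, the shorter had 17 positions, or 0.231 per kb (0.135 to 0.370), and the longer had 7, or 0.283 per kb (0.114 to 0.583). In the longer islands the intervals of these windows overlap, and the step was not tested within either group.

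By CpG ratio, the 470 islands with a ratio of 0.80 or more had 0.285 per kb and the 624 with a lower ratio 0.393 per kb. This difference did not pass, with a log2 ratio of -0.46 ± 0.27 that was negative on 14 of 22 chromosomes (permutation p = 0.116, adjusted 0.142). The lowest class was that of islands with at least as many CpGs as their base composition predicts. The 97 islands with a ratio of 1 or more had 7 positions in 110.0 kb, or 0.0636 per kb (0.0256 to 0.131), and the 35 unique ones among them had 6, or 0.173 per kb (0.0636 to 0.377). Of those 35, 10 had empty surroundings. Unique islands in the other classes of ratio had 0.410 to 0.684 per kb. Set against the density in the 50 kb on either side, the unique islands with a ratio of 1 or more had 0.246 times the positions of their surroundings, and the other classes had 0.314 to 0.503 times. These classes were not tested against each other.

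Length and CpG ratio together singled out 1 group. Unique islands of 1000 bp or more with a ratio of 0.80 or more, 86 in number, had 36 positions, or 0.286 per kb (0.200 to 0.396). Long unique islands with a lower ratio, 79 in number, had 0.557 per kb (0.432 to 0.707). Short unique islands had 0.538 per kb (0.425 to 0.671) with the higher ratio and 0.623 per kb (0.515 to 0.748) with the lower. Relative to their surroundings the long CpG-rich islands had 0.248 times the positions and the other groups 0.383 to 0.487 times. In the first 100 bp inside the edge the long CpG-rich islands had 6 positions, or 0.349 per kb (0.128 to 0.759), where the other groups had 0.886 to 0.920 per kb. This grouping was looked at after the single features, and the combination was not tested.

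Islands richer in GC were less dense. The 811 islands with at least 65% GC had 0.289 per kb and the 283 with less had 0.479 per kb, a log2 ratio of -0.72 ± 0.26, with the richer islands lower on 15 of 22 chromosomes (permutation p = 0.00813, adjusted 0.012). Weighting by GC content takes out the variable compared here. Its log2 ratios, 0.18 for all islands between genes and 0.40 for unique ones, therefore do not bear on this contrast. In unique islands the log2 ratio without weighting was -0.46 ± 0.28, which did not pass (adjusted permutation p = 0.103). Distance from the nearest gene showed no difference that passed. The 283 islands over 20 kb from a gene had 0.302 per kb and the 811 nearer ones 0.358 per kb, a log2 ratio of -0.28 ± 0.23, with the distant islands lower on 13 of 22 chromosomes (permutation p = 0.213, adjusted 0.235). Near chromosome ends, the 112 islands within 1 Mb had 0.165 per kb and the 44 unique ones among them 0.407 per kb (0.233 to 0.661), which overlaps the interval of unique islands over 5 Mb from an end, 0.508 per kb (0.442 to 0.581).

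Set beside islands at genes, the islands between genes had fewer positions than promoter islands when all sequence was counted. Interiors had 0.278 per kb between genes and 0.457 per kb at promoters, a log2 ratio of -0.72 ± 0.16, with the islands between genes lower on 17 of 22 chromosomes (permutation p = 0.00011, adjusted 0.000242). In unique islands the interiors had 0.438 and 0.485 per kb, and the log2 ratio of -0.14 ± 0.13 did not pass (adjusted permutation p = 0.283). The flanks of the islands between genes were denser than those of promoter islands, at 1.36 and 1.06 per kb in the unique sets. Counted against the density of the surrounding sequence, the unique interiors were lower than those at promoters, with a log2 ratio of -0.33 ± 0.13 (adjusted permutation p = 0.0254), and with GC weighting the log2 ratio was -0.43 ± 0.13 (adjusted permutation p = 0.00693). Gene-body islands did not differ in a way that passed. Their interiors had 0.297 per kb, a log2 ratio of -0.11 ± 0.22 for islands between genes against them (permutation p = 0.626, adjusted 0.626), and in unique islands the direction turned, at 0.438 against 0.346 per kb and a log2 ratio of 0.38 ± 0.19 (adjusted permutation p = 0.103).

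At the edge the 3 sets shared the same order of bins but not the same contrast. From 0 to 75 bp inside, unique islands had 1.03 per kb between genes (0.836 to 1.25), 0.937 at promoters (0.888 to 0.988) and 0.718 in gene bodies (0.639 to 0.804). From 75 to 150 bp inside they had 0.244 (0.156 to 0.363), 0.442 (0.408 to 0.477) and 0.328 (0.276 to 0.388). In the 100 bp outside, they had 0.458 (0.350 to 0.590), 0.664 (0.628 to 0.701) and 0.469 (0.414 to 0.529). Density in both troughs was thus higher at promoters than between genes, with intervals that do not overlap, whereas the intervals for the band between them overlap. These contrasts between the sets were not tested.

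Further out, density at the unique islands between genes dipped once more. From 350 to 300 bp outside the edge they had 105 positions, or 1.60 per kb (1.31 to 1.94), and in the next 50 bp towards the island 49, or 0.749 per kb (0.554 to 0.990). Density rose again to 1.19 per kb from 150 to 100 bp outside. Promoter islands had 0.831, 0.825 and 1.05 per kb in these 3 windows and gene-body islands 1.16, 1.04 and 0.999. In these windows the alternation was thus widest between genes. That difference was not tested either. The windows were chosen from profiles of this map, so they cannot show whether the alternation is particular to the islands between genes.

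The islands were spread over all 22 chromosomes, from 16 on chromosome 21 to 95 on chromosome 1. Density in unique islands was lowest on chromosome 1, at 0.217 per kb over 52 islands, and highest on chromosome 11, at 0.868 per kb over 21 islands. By distance, unique islands 2 to 5 kb from a gene had 0.607 per kb (0.496 to 0.735), and the 59 lying over 50 kb away had 0.288 per kb (0.168 to 0.461). Relative to the 50 kb on either side, the unique islands at 2 to 5, 5 to 10, 10 to 20, 20 to 50 and over 50 kb had 0.459, 0.358, 0.384, 0.329 and 0.480 times the local density, with no steady order. 

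**Figure D4:**
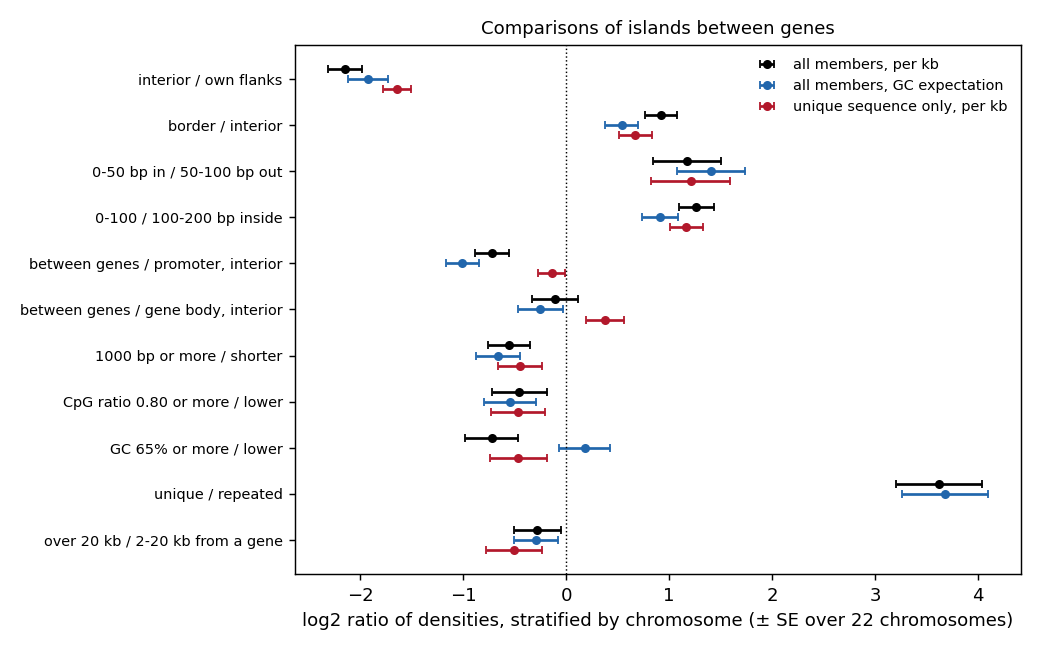
The 11 comparisons as log2 ratios of densities (horizontal axis) with SE over 22 chromosomes as bars, for all islands per kb, all islands with GC weighting, and unique islands per kb. Interior against flanks is the most negative and unique against repeated the most positive, and the comparison with promoter islands moves to -0.14 in unique islands.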

How the data were processed

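The authors deposited 1 list of called positions, which names neither batch, with a chromosome, start and end per row, per the file headers, and no score. Bowtie2 and hg38 are named in the submitters' processing notes. The caller, its threshold, the handling of multiply mapping reads and any pooling of batches are not given in the sources used here. The list had 2634347 rows, and the 2558490 distinct positions on chromosomes 1-22 were used. Reference sequence was hg38 and annotation GENCODE v44.

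Read depth is unknown, so precision rests on the number of positions. Density was positions per kb of determined bases. Differences were combined over chromosomes with weights a × b / (a + b) of the bases in the 2 classes, and signs were flipped at random 100000 times. Benjamini-Hochberg values cover 11 tests at a threshold of 0.05. Standard errors come from the spread over 22 chromosomes, and 95% intervals cover counting error. The GC weighting used 2% bins of the surrounding 200 bp, with densities from chromosomes 1-22 of this map, islands included. Alternatives were the GC expectation, the local density within 50 kb, only unique islands, no islands with empty surroundings, and other limits and merged positions. The unique islands combined with either expectation were added after seeing the data. The calculation was checked on simulated counts. Islands named in the text were the unique ones that had the most positions, were longest without one, had the highest CpG ratio or lay farthest from a gene. The members, lists and windows were chosen with earlier results of these data known. Software was Python 3.11.15, with numba 0.67.0, pandas 2.3.3, numpy 2.4.6 and scipy 1.17.1.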

Additional observations from a re-analysis of the deposited data

Results flagged for a closer look

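The comparisons used chromosomes 1-22. Chromosome X carried a further 74465 rows of the list and 12 unplaced or alternate sequences carried 1388, both above the 3 that a count of 0 allows, and islands there were not analysed here.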

How the results depend on the processing

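Over 12 results, 100 alternative values were computed, 98 of them with a test. Of the 100, 86 kept their sign and side of the threshold (or, for a number of members, stayed close to the main number), 7 no longer passed, 6 changed sign without passing and 1 count moved. Interior against flanks, both comparisons inside the edge and unique against repeated sequence passed under every alternative run for them. With only unique islands the log2 ratios that no longer passed were -0.14 against promoter islands, -0.45 for length and -0.46 for GC content, and the one against gene-body islands changed sign to 0.38. With unique islands and the GC expectation together, an alternative chosen after seeing the data, border against interior was 0.26 and no longer passed, gene-body islands had 0.15 and GC content 0.40, opposite in sign to the main values and neither passing. With unique islands and the local expectation, also added, length was -0.46 and GC content -0.38, neither passing, and gene-body islands changed sign to 0.33. Over all members the GC expectation gave 0.18 for GC content. The values of 0.18 and 0.40 for GC content come from a weighting that takes out the variable compared, so they do not bear on that contrast. Without empty surroundings, length was -0.41 and no longer passed and gene-body islands changed sign to 0.03 (0.028). A CpG ratio over 0.75 left 671 members and a distance of 5 kb left 795. The causes were not tested. No paired analysis was possible because the list names neither batch, and for the same reason no batch could be left out. No stricter threshold could be tried, since positions carry no score.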
